A study of Homo sapiens with 22 samples.

Results

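The genes described here were the VEGF ligands VEGFA, VEGFB, VEGFC and PGF, the angiopoietins ANGPT1 and ANGPT2, and the angiopoietin-like protein ANGPTL4. They were chosen by name, and all 7 were found among the 36859 genes of the deposited RNA-seq table and read across all 22 libraries. Genes with 10 or more normalized counts in 2 or more libraries, 14585 in all, were tested. VEGFA, VEGFB, ANGPTL4 and PGF passed this filter, so 4 of the 7 were tested, and VEGFC, ANGPT1 and ANGPT2 did not pass it.

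VEGF ligands are secreted dimers that bind receptor tyrosine kinases on endothelial cells. VEGFA acts mainly through KDR (VEGF receptor 2) and is the principal signal for vessel growth and permeability, VEGFB and PGF bind FLT1 (VEGF receptor 1), VEGFC drives lymphatic growth through FLT4 (VEGF receptor 3), and the neuropilins NRP1 and NRP2 serve as co-receptors. The angiopoietins bind the receptor TEK (Tie2), where ANGPT1 stabilises vessels and ANGPT2 often opposes it, while ANGPTL4 inhibits lipoprotein lipase and, like VEGFA, is a known target of the hypoxia-inducible factors (HIF). In the kidney, tubule and podocyte epithelium supplies VEGFA to neighbouring capillaries, and clear cell renal carcinoma, which often carries SETD2 mutations, is known for high VEGFA when VHL is lost.

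The study asked how loss of SETD2, the methyltransferase that places trimethylation on lysine 36 of histone H3, changes renal epithelial cells, how that compares with TGF-β, and whether putting SETD2 back reverses it. It used RPTEC, a non-tumour line of human renal proximal tubule epithelial cells immortalized with hTERT, in 11 groups of 2 libraries each. The groups at 2% serum were WT, WT treated for 72 h with TGF-β at 10 ng/ml, the SETD2 knockouts KO1 and KO2, each a single clone made by CRISPR in exon 3, and a group labelled KO2_Rescue. The groups in regular medium with 10% serum were Rescue1 and Rescue2, each a single clone of knockout cells (the methods do not name the parent, and the study's clone names give KO2, with 1 name inconsistent) transduced with lentiviral 3×FLAG SETD2 under blasticidin, and WT pools transduced with an empty eGFP vector, SOX2, OCT2 or PRRX1 under puromycin. All cells were kept under G418, which selects for the hTERT construct. Rescue clones and eGFP cells thus differ from the knockouts and from WT in serum as well, which cannot be told apart from the transgene, and the labels put untreated WT at 0 h and treated WT at 72 h, so TGF-β and time in culture cannot be told apart either. The labels name replicates without saying that they came from separate cultures, so every p-value below measures only the spread between these libraries, which may be technical.

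Normalized counts per library summed to between 11674491 and 16758645, from about 7700000 to 19000000 reads. The targeted gene SETD2 averaged 1956 normalized counts in WT, 1088 in KO1, 1051 in KO2, 10305 in Rescue1 and 10105 in Rescue2, while the group labelled KO2_Rescue averaged 827 and so lay below KO2 (log2 change −0.35, adjusted p = 0.00382 by limma). It goes against its label and is called the labelled KO2 rescue throughout. The epithelial keratins KRT8 and KRT19 and the renal factors PAX8 and PAX2 were present in every library, whereas the differentiated proximal tubule markers LRP2, SLC22A6 and HNF4A were at or near 0. The WT replicates stood apart from each other. Their summed fibroblast markers were 12453 in replicate 1 and 846 in replicate 2, so results against WT are also given without each of them. In bulk RNA a lower level can mean fewer cells of a type or less RNA per cell, and these cannot be told apart.

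Of the 7 genes, VEGFA was far the most abundant for its length, with a median of 2124 normalized counts per kb of canonical transcript over the 22 libraries. VEGFB followed at 262 per kb, PGF at 5.31 and ANGPTL4 at 2.37, whereas ANGPT2 had a median of 0.222 and VEGFC and ANGPT1 had medians of 0. The levels that follow are normalized counts per library, not per length, and replicate 1 is given first. Differences are log2 changes of the normalized count + 1 with their standard errors, a scale that understates the change of low genes. A gene was called when the limma adjusted p, over all 14585 genes, was below 0.05 and the log2 change was beyond 1 in either direction.

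**Figure D1:**
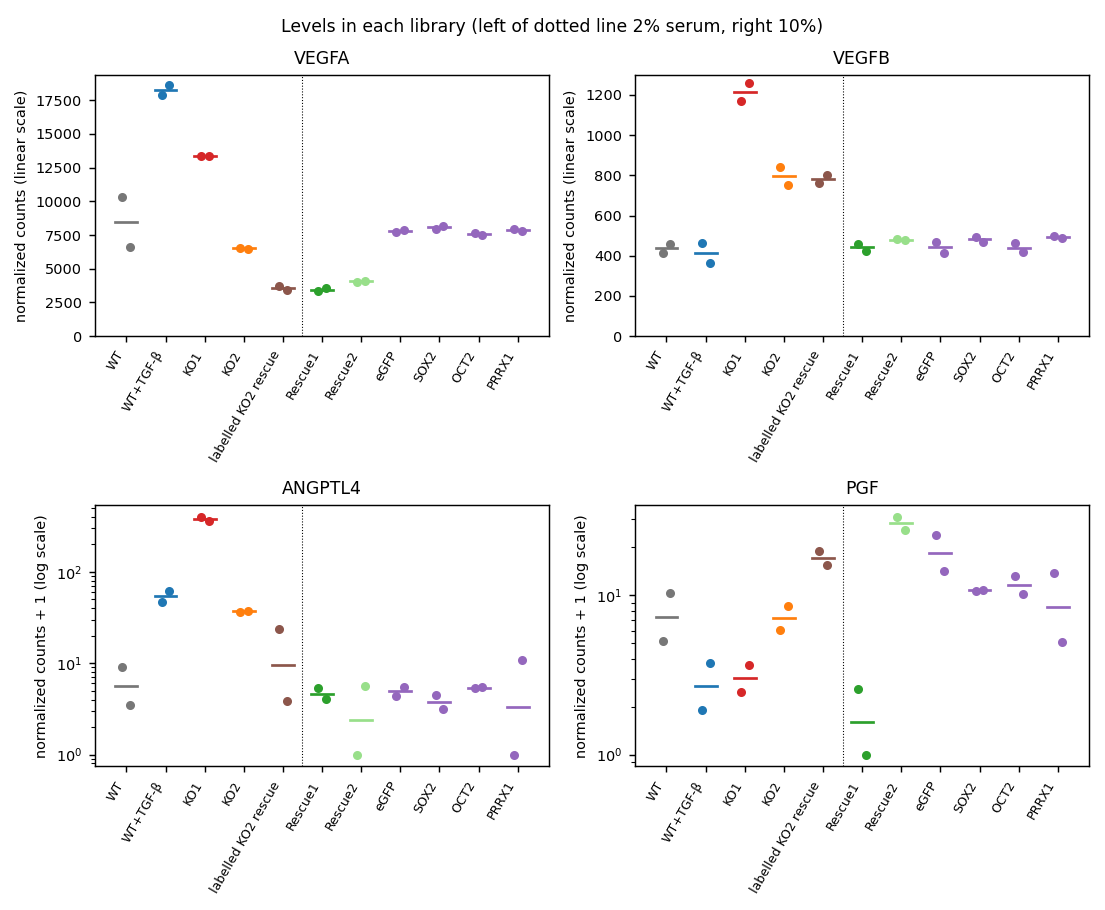
Normalized counts of VEGFA and VEGFB on linear axes, and of ANGPTL4 and PGF (count + 1) on log axes, for the 22 libraries by group; each dot is a library and each bar the mean of its group, arithmetic on the linear axes and geometric on the log axes. VEGFA is highest with TGF-β, at 17861 and 18639, VEGFB is highest in KO1, at 1172 and 1257, ANGPTL4 is highest in KO1, at 399.6 and 358, and PGF is highest in Rescue2, at 30.1 and 24.7.

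VEGFA (ENSG00000112715) lies on the plus strand of chromosome 6 at 43770184 to 43786487 (GRCh38, GENCODE 44), where its canonical transcript has 8 exons, and overlaps a long non-coding RNA on the other strand. Its 22 libraries ran from 3348 to 18639 normalized counts with a median of 7666. Untreated WT had 10350.1 and 6591, a gap of 0.65 on the log2 scale that exceeded that of 92.4% of the 2347 genes with at least 1000 normalized counts. TGF-β-treated WT had 17861 and 18639, above every other library.

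KO1 had 13351 and 13328, the next highest pair, whereas KO2 had 6527 and 6491, just below the lower WT library. The labelled KO2 rescue had 3692 and 3406, Rescue1 had 3348 and 3551, and Rescue2 had 4022 and 4096. These 6 libraries were the lowest of the series, and the labelled KO2 rescue and Rescue1 overlapped. The eGFP cells had 7700.1 and 7837 and the SOX2, OCT2 and PRRX1 cells spanned 7470.3 to 8187, between the 2 WT values. In the order of the group means, WT, SOX2, PRRX1, eGFP and OCT2 were separated from their neighbours by at most 0.04 on the log2 scale, less than the pooled replicate SD of 0.14, while the steps from TGF-β to KO1 (0.45), from KO1 to WT (0.69) and from KO2 to Rescue2 (0.68) were larger than it.

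VEGFB (ENSG00000173511), at 64234584 to 64239264 on the plus strand of chromosome 11, ran from 366 to 1257 with a median of 474. The highest pair was KO1, with 1172 and 1257. KO2 had 839 and 754, and the labelled KO2 rescue had 761 and 802. These 6 libraries stood above the other 16, and KO2 and the labelled KO2 rescue overlapped. WT had 413 and 459, TGF-β-treated WT had 465 and 366, and Rescue1 (460.5 and 423) and Rescue2 (482 and 478) were in the same range. The eGFP cells had 469.6 and 415, and the highest of the remaining transduced libraries had 500.1. Below the labelled KO2 rescue, group means lay between 415 and 493, and steps between neighbours were at most 0.12 (from Rescue2 to eGFP), against a pooled replicate SD of 0.11.

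ANGPTL4 (ENSG00000167772), at 8363289 to 8374370 on the plus strand of chromosome 19, was the member with the widest span. KO1 had 399.6 and 358 normalized counts. TGF-β-treated WT had 45.5 and 61.1, and KO2 had 35.0 and 36.6. Untreated WT had 8.17 and 2.52, the latter from about 2.9 reads. The KO1, TGF-β and KO2 libraries stood above all of the rest, with KO1 far above TGF-β and KO2, which differed from each other by less than the pooled replicate SD of 1.12 (log2 step 0.54). The labelled KO2 rescue was split, at 22.4 and 2.86, and the rescue clones and transduced WT pools, Rescue1 at 4.30 and 3.02 and Rescue2 at 0 and 4.63 among them, reached at most 9.92. From the labelled KO2 rescue down, each group overlapped its neighbours in the order of the means.

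PGF (ENSG00000119630), at 74941834 to 74955626 on the minus strand of chromosome 14, was low throughout, with a median of 9.24 and a maximum of 30.1, so that it rests on at most about 33 reads a library. Rescue2 had 30.1 and 24.7 while Rescue1 had 1.57 and 0, the highest and lowest groups of the series by their means. WT had 4.18 and 9.31, KO2 had 5.08 and 7.56, and KO1 had 1.46 and 2.66. TGF-β-treated WT, at 0.917 and 2.76, lay with KO1 below every WT and KO2 library, and it overlapped Rescue1. The labelled KO2 rescue had 17.8 and 14.4 and the eGFP cells 22.8 and 13.3, above WT and KO2.

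VEGFC (ENSG00000150630), ANGPT1 (ENSG00000154188) and ANGPT2 (ENSG00000091879) were near the detection limit. The first lies at 176683538 to 176792922 on chromosome 4 and the others at 107249482 to 107498055 and 6499632 to 6563409 on chromosome 8, each on the minus strand. VEGFC was 0 in 13 of 22 libraries and over 3 reads in 4, with a maximum of 4.72 normalized counts in OCT2 replicate 1. ANGPT1 was 0 in 14 and over 3 reads in 5. Its highest value, 19.9 in KO2 replicate 1, stood beside 0 in KO2 replicate 2, and KO1 was likewise 8.39 and 0, so that Rescue1, with 8.21 and 7.30, was the only group with both libraries over 3 reads. ANGPT2 was 0 in 7 libraries, over 3 reads in 3 and at most 4.62, and it overlaps MCPH1 on the other strand. A count of 0 allows up to 3 reads, which is 2.46 to 4.72 normalized counts depending on the library and covers counting error only. These 3 genes were not tested, and a difference between groups was not detectable at this depth.

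**Figure D2:**
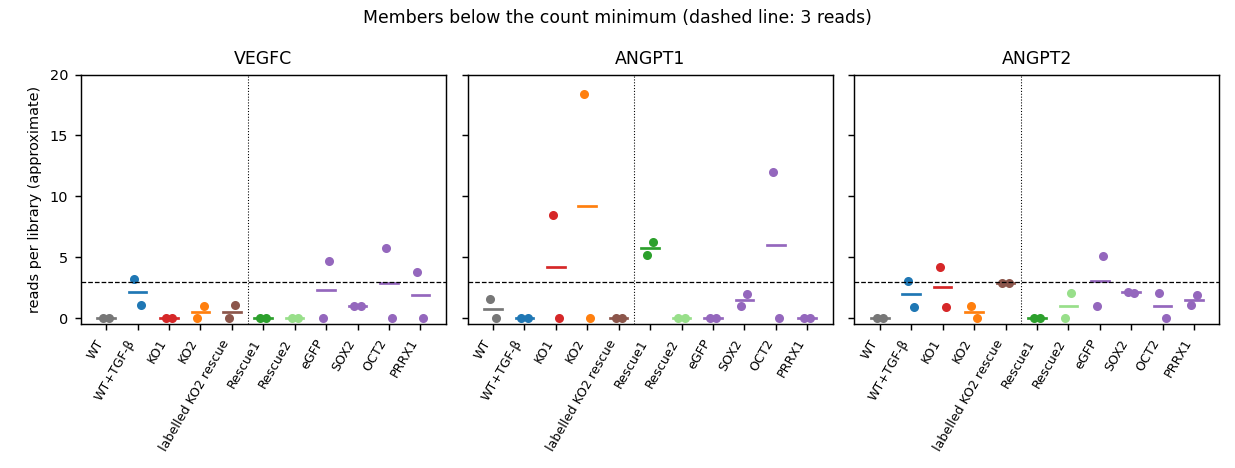
Approximate reads of VEGFC, ANGPT1 and ANGPT2 in each library by group, on a linear axis; each dot is a library, each bar a group mean, and the dashed line marks 3 reads. The highest point is ANGPT1 in KO2 replicate 1, at 18.4 reads, while its replicate 2 is at 0.

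VEGFB and ANGPTL4 were the members called in KO1 against WT, so the 250 bases before their RefSeq starts (GRCh38.p14) are shown, 5′ to 3′ on the plus strand, from chr11:64234334-64234583 and chr19:8363905-8364154. The RefSeq start of ANGPTL4 lies inside the longer GENCODE gene span given above. Capitals mark the HIF core, GCGTG or ACGTG, on either strand.
VEGFB: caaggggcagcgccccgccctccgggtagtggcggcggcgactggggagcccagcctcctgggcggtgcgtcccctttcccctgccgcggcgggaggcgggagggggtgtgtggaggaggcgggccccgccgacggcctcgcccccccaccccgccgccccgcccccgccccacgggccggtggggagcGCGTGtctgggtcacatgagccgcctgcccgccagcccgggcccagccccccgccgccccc
ANGPTL4: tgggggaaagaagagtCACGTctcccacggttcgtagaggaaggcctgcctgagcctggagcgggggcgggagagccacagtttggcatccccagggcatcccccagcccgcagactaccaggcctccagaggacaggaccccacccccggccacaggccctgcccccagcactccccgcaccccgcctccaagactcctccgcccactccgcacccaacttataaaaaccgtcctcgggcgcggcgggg
The VEGFB promoter was 82.8% G or C with 30 CpG and held 1 GCGTG, 61 bases before the start, 6 GC boxes (GGGCGG) and no TATA box (TATAAA). The ANGPTL4 promoter was 68.8% G or C with 16 CpG and held 1 ACGTG on the other strand, 234 bases before the start, 2 GC boxes and a TATA box 29 bases before the start. Such short words are common. GCGTG was found in 32.2% and ACGTG in 18.5% of the 35116 promoters of the same length searched on both strands, GGGCGG in 42.6% and TATAAA in 10.7%, and the median promoter was 58.0% G or C. A match is only a description of the sequence.

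The comparison of TGF-β with WT asked what the cytokine did at the same serum. VEGFA rose 2.21-fold (log2 change 1.14, SE 0.13, adjusted p = 2.6e-05), and it was the 1 member called of 4 tested, against 7.84% of all genes called. The treated libraries were both above both WT libraries. The size depended on the WT pair, with a log2 change of 1.47 when WT replicate 1 was left out and of 0.82, short of the threshold, when WT replicate 2 was. ANGPTL4 missed it narrowly, at 3.24 (SE 1.07, adjusted p = 0.0501), with 45.5 and 61.1 against 8.17 and 2.52, and it was called at 2.54 with a pseudocount of 5. VEGFB differed by −0.08 (95% interval −0.34 to 0.18) and PGF by −1.44 (adjusted p = 0.178).

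KO1 against WT asked for the effect of SETD2 loss in the first clone. VEGFB rose 2.78-fold (log2 change 1.48, SE 0.12, adjusted p = 1.9e-07), and the call held without either WT library (1.40 and 1.55). ANGPTL4 rose 66.7-fold on the count + 1 scale (log2 change 6.06, SE 1.07, adjusted p = 3.4e-04), and at 6.75 and 5.37 when WT replicates 1 and 2 were left out. That made 2 of 4 members called, where 25.0% of all genes were called. VEGFA was 1.62-fold higher, a log2 change of 0.69 (adjusted p = 6.4e-04) that did not reach 1 but was called at 1.02 with WT replicate 1 left out and stood at 0.37 with WT replicate 2 left out. PGF was at −1.28 (adjusted p = 0.15).

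KO2 against WT asked the same of the second clone. None of the 4 members was called by limma, although 3 had an unadjusted p under 0.05, and 16.3% of all genes were called. VEGFB was 1.82-fold higher (log2 change 0.87, SE 0.12, adjusted p = 6.9e-05), with both KO2 libraries above both WT libraries. ANGPTL4 was higher by 2.70 (SE 1.07, adjusted p = 0.0748), and it was called at 2.04 with a pseudocount of 5. VEGFA was on the other side of WT, at −0.34 (adjusted p = 0.0649), and that value moved to −0.02 or −0.67 when the first or the second WT library was left out. PGF was at −0.02 with a wide 95% interval of −1.47 to 1.43.

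The clones were also compared with each other, which leaves WT out. VEGFA was 2.05-fold higher in KO1 than in KO2 (log2 change 1.04, SE 0.13, adjusted p = 8.3e-05), and ANGPTL4 10.3-fold (3.36, SE 1.07, adjusted p = 0.0458). These were 2 of 4 members called, against 6.97% of all genes. The ANGPTL4 call was lost without any 1 of the 4 libraries, with log2 changes of 3.28 to 3.44, and with a replicate block (adjusted p = 0.0568), although 399.6 and 358 stood far from 35.0 and 36.6. The VEGFA call was lost with quantile normalization (0.97). VEGFB was higher in KO1 by 0.61 (adjusted p = 0.00346), and PGF was at −1.26 (adjusted p = 0.233).

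**Figure D3:**
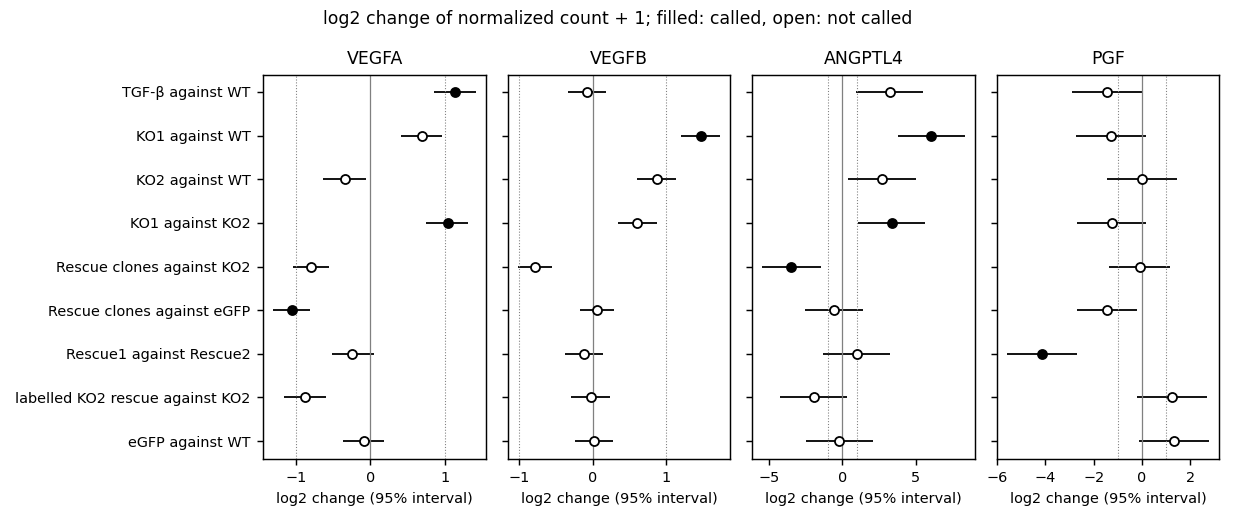
Log2 changes of the normalized count + 1 for VEGFA, VEGFB, ANGPTL4 and PGF in 9 comparisons, with 95% intervals from limma as bars; filled points were called, open points were not, and dotted lines mark changes of 1 in either direction. VEGFA is called in TGF-β against WT (1.14), KO1 against KO2 (1.04) and the rescue clones against eGFP (−1.05), and PGF only between the rescue clones (−4.14).

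The mean of both knockout clones was set against TGF-β-treated WT to compare the 2 routes directly. VEGFB was 2.38-fold higher in the knockouts (log2 change 1.25, SE 0.11, adjusted p = 2.6e-07), with all 4 knockout libraries above both treated ones. It was the 1 of 4 members called, against 20.2% of all genes. VEGFA was lower in the knockouts, at −0.97 (adjusted p = 8.0e-06) and so just short of the threshold, with the treated libraries above all 4 knockout libraries. It was called at −1.08 with quantile normalization and at −1.05 with equal totals, and it passed the threshold at −1.0 when TGF-β replicate 1 was left out. ANGPTL4 was at 1.14 (adjusted p = 0.379), since the KO1 libraries lay above and the KO2 libraries below the treated ones.

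The rescue clones were compared with KO2, with the serum difference stated above. ANGPTL4 fell 11.1-fold (log2 change −3.48, SE 0.93, adjusted p = 0.00906), from 35.0 and 36.6 to at most 4.63, and was the 1 of 4 members called, against 17.5% of all genes. That call was lost without KO2 replicate 1 (adjusted p = 0.0572) or KO2 replicate 2 (0.0597). VEGFA was lower, at −0.80 (SE 0.11, adjusted p = 6.5e-05), and VEGFB at −0.79 (SE 0.11, adjusted p = 3.9e-05), and for both all 4 rescue libraries were below both KO2 libraries. VEGFB overlapped WT (413 and 459) in Rescue1 and lay slightly above it in Rescue2 (482 and 478). VEGFA lay below both WT libraries in both rescue clones. Against the mean of both knockout clones both genes were called, VEGFA at −1.32 (adjusted p = 2.3e-08) and VEGFB at −1.09 (adjusted p = 8.8e-08).

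PGF averaged to −0.10 over the rescue clones while they lay on opposite sides of KO2. It was lower in Rescue1, at −2.17 (adjusted p = 0.0249), and higher in Rescue2, at 1.97 (adjusted p = 0.0404). With ANGPTL4 this gave 2 of 4 members called in each clone, against 16.1% of all genes for Rescue1 and 15.3% for Rescue2. Set directly against each other, the rescue clones differed in PGF by −4.14 (SE 0.68, adjusted p = 0.0038), and by reads the ratio of Rescue2 to Rescue1 was 41.4 (63 reads against 1, exact 95% counting interval 7.17 to 1661). It was the 1 member of 4 called, in a comparison where 0.994% of all genes were called. VEGFA differed between the clones by −0.24 (95% interval −0.52 to 0.05) and VEGFB by −0.12 (−0.38 to 0.14).

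Within 10% serum the rescue clones were set against the eGFP cells. VEGFA fell 2.08-fold (log2 change −1.05, SE 0.11, adjusted p = 6.3e-06), from 7700.1 and 7837 to between 3348 and 4096. It was the 1 of 4 members called, against 13.1% of all genes. PGF was at −1.45 (adjusted p = 0.0772), with Rescue1 below and Rescue2 above both eGFP libraries, and was called at −1.79 (adjusted p = 0.0406) without Rescue1 replicate 1. VEGFB differed by 0.06 (95% interval −0.17 to 0.29) and ANGPTL4 by −0.57 (−2.55 to 1.42).

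The labelled KO2 rescue shares its serum with KO2 and had no more SETD2 RNA. None of the 4 members was called by limma, 1 had an unadjusted p under 0.05, and 4.17% of all genes were called. That member was VEGFA, lower at −0.88 (SE 0.13, adjusted p = 4.1e-04), with 3692 and 3406 against 6527 and 6491. VEGFB differed by −0.03 (95% interval −0.29 to 0.24). ANGPTL4 was at −1.95 (adjusted p = 0.323) and was split between the 2 libraries.

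The eGFP cells against WT carry serum and transduction together. None of the 4 members was called by limma and none had an unadjusted p under 0.05, where 12.7% of all genes were called. VEGFA differed by −0.09 (95% interval −0.37 to 0.19), VEGFB by 0.02 (−0.24 to 0.28) and PGF by 1.33 (−0.11 to 2.78). SOX2, OCT2 and PRRX1 were each set against eGFP, and again 0 of 4 members were called and 0 had an unadjusted p under 0.05, with 0.0206%, 0.0343% and 0.0411% of all genes called. VEGFA changed by at most 0.06 and VEGFB by at most 0.16 in these comparisons, with standard errors of 0.13 and 0.12. The comparisons share WT, KO2 or eGFP libraries, so their values are not independent of each other.

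Scaling bore on several calls. When all libraries were given equal totals, the median of all genes moved by −0.39 in KO1 and −0.20 in both KO2 and TGF-β against WT, by −0.21 in KO1 against KO2 and by 0.26 in the rescue clones against KO2. Under it VEGFA was at 0.91 with TGF-β, 0.28 in KO1, 0.85 in KO1 against KO2 and −0.94 in the rescue clones against eGFP, and none of these was called. VEGFB in KO1 (1.07) and ANGPTL4 in KO1 (5.67) and in the rescue clones against KO2 (−3.25) were still called.

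Of the receptors and other ligands, 16 were listed and 6 tested. KDR had 0.8 and 0 normalized counts in WT and 0 in both TGF-β libraries, but 123 and 103 in KO1 and 145 and 126 in KO2. All 4 knockout libraries were far above all others, the next being 42.0 in Rescue1 replicate 2. KDR rose in KO1 (log2 change 6.41, SE 0.80, adjusted p = 1.4e-05) and in KO2 (6.68, SE 0.80, adjusted p = 1.5e-05). By reads the ratios to WT were 258 (242 reads against 1, exact 95% counting interval 45.9 to 10229) and 311 (55.4 to 12351). Against the TGF-β libraries, both at 0, the knockouts were at least 34.5-fold higher, taking 3 reads per library as the floor.

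Against KO2, KDR fell by 4.22 on the log2 scale in the rescue clones (adjusted p = 2.4e-04). It also fell by 4.0 in the labelled KO2 rescue (adjusted p = 0.00439), where SETD2 was no higher than in KO2. The rescue libraries had 4.2 and 42.0 in Rescue1 and 1.6 and 3.9 in Rescue2, while both eGFP libraries were at 0. Only the 42.0 stood clearly above the floor of 3 reads in eGFP, 3.70 normalized counts, so the call of KDR in the rescue clones against eGFP (2.87, adjusted p = 0.00576) rests on low counts, and no fold is given. KDR is itself an endothelial gene. The summed endothelial list of 10 markers ran from 76.2 to 232 normalized counts, with 76.2 and 102 in KO1 and 77.5 and 84.9 in KO2 beside 91.6 and 123 in WT. EMCN was 0 in all libraries, and CLDN5 and PLVAP reached at most 0.8 and 2.2. VWF, ROBO4, PECAM1 and TAL1 reached at most 26.3, 29.6, 25.1 and 19.2. CDH5 had 68.7 and 83.8 in Rescue1 and 5.7 and 23.6 in Rescue2. It was 0 and 17.9 in WT and 0 in both libraries of KO1 and of KO2. The most abundant of the list, EGFL7, fell by 1.95 in KO1 (adjusted p = 0.00458). ESAM, an endothelial adhesion molecule, had 5.6 and 0 in WT, 28.9 and 54.1 in KO1 and 32.2 and 30.9 in KO2. In the labelled KO2 rescue, where KDR had 7.0 and 8.1, ESAM stayed at 25.7 and 23.0. It was called higher in KO1 (3.98, adjusted p = 0.0351), although no endothelial marker was called higher there with WT replicate 2 left out, and lower in the rescue clones against KO2 (−3.73, adjusted p = 0.0273). The part of these markers in the KDR result was not tested.

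The co-receptors were abundant. NRP2 had 5372 and 5656 in WT, 19725 and 20802 in KO1 and 18716 and 16940 in KO2, and it rose in both clones (log2 change 1.88, SE 0.07, adjusted p = 4.0e-11 in KO1, and 1.69, SE 0.07, adjusted p = 2.4e-10 in KO2). Against KO2 it fell by 1.20 in the rescue clones (adjusted p = 2.3e-09) and fell by 1.15 in the labelled KO2 rescue (adjusted p = 7.6e-08). In TGF-β-treated WT it was higher by 0.65 (adjusted p = 2.2e-05), short of the threshold, with 9208 and 8077. Rescue1 had 8027 and 7483 and Rescue2 7827 and 7727, above WT, and the eGFP cells had 9713 and 9032. The eGFP cells were 0.76 above WT (adjusted p = 2.4e-06). The rescue clones against eGFP were at −0.27 (adjusted p = 0.00453), and neither was called.

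NRP1 had 492 and 428 in WT, fewer with TGF-β (220 and 174) and more in KO1 (1926 and 3349) and KO2 (1345 and 1233). With TGF-β it fell by 1.23 (SE 0.26, adjusted p = 0.00436, called in 3 of 4 fits that left out a library) and rose in KO1 (2.47, SE 0.26, adjusted p = 2.7e-06) and KO2 (1.49, SE 0.26, adjusted p = 5.1e-04). The TGF-β and knockout libraries thus lay on opposite sides of WT, and the direct comparison of both clones with TGF-β gave 3.20 (adjusted p = 3.5e-08). It differed little between the rescue clones and KO2 (−0.19, 95% interval −0.67 to 0.30) and was higher in eGFP than in WT by 1.29 (adjusted p = 0.00202).

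**Figure D4:**
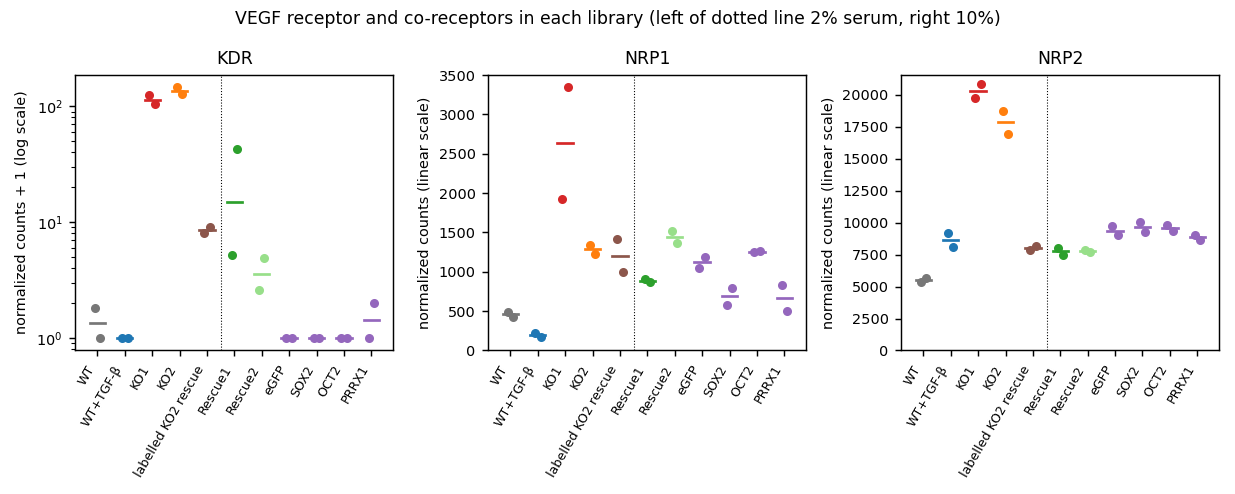
Normalized counts of KDR (count + 1, log axis) and of NRP1 and NRP2 (linear axes) in each library by group; each dot is a library and each bar a group mean, geometric for KDR. KDR is over 100 only in KO1 and KO2, and NRP2 is at 16940 or more in those 4 libraries and at most 10055 in the other 18.

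Of the list, 3 genes were called higher in KO1 and 4 in KO2, none lower, and 1 lower with TGF-β, where 12%, 9.02% and 4.26% of all genes were called in those directions. The medians over the 6 genes were 1.92, 1.89 and 0.10, beside a median over all genes of 0. The fourth call in KO2 was the orphan receptor TIE1 (3.13, adjusted p = 0.0443), with 3.3 and 24.1 against 0 and 0.4 in WT, and the count was 3 without either WT library and under both other scalings. TIE1 had 27.2 and 27.5 in Rescue1, 12.4 and 0 in Rescue2 and 0 in both labelled KO2 rescue libraries. The rescue clones differed from KO2 by −0.04 (95% interval −2.07 to 2.0). Against eGFP they were called higher (2.99, adjusted p = 0.0275), although the libraries overlapped. In that comparison 2 of the list were called higher and 0 lower, where 6.47% and 6.66% of all genes were. FLT1 was 0 in 13 of 22 libraries with a maximum of 15.7, FLT4 reached at most 10.5 and TEK at most 14.8. VEGFD was 0 in 21 libraries and ANGPTL7 in all 22. ANGPT4 was not analysed here.

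VEGFA and ANGPTL4 were read beside a list of hypoxia pathway genes and HIF targets, of which 22 were listed and 20 tested. In KO1, 6 were called higher and 0 lower, with a median of 0.89, where 12% of all genes were called higher and 13.1% lower. The genes with the largest changes were CA12, a cell surface carbonic anhydrase (9.18, adjusted p = 8.3e-12), ADM, the vasodilator peptide adrenomedullin (4.94, adjusted p = 6.3e-06), and DDIT4, an inhibitor of mTORC1 (4.24, adjusted p = 2.5e-04). CA12 had 18.9 and 9.1 in WT and 8084 and 8348 in KO1. With WT replicate 1 left out 9 were called higher, and with WT replicate 2 left out 7 were.

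In KO2, 4 were called higher and 1 lower, with a median of 0.47, where 9.02% of all genes were called higher and 7.29% lower. The largest changes were of CA12 at 5.59 (adjusted p = 4.5e-09), DDIT4 at 2.45 (adjusted p = 0.0189) and ADM at 2.37 (adjusted p = 0.00547). SLC2A1 was lower in KO2, with 5838 and 5338 against 13028 and 14335 in WT. The DDIT4 call was kept in 1 of the 4 fits that left out a library and the ADM call in 3, and 2 were called lower with WT replicate 1 left out. Between the clones, CA12 was higher in KO1 by 3.59 (adjusted p = 2.3e-06), ADM by 2.57 (adjusted p = 0.00697) and NDRG1, a stress-induced differentiation gene, by 1.09 (adjusted p = 4.5e-04), the only 3 of 20 called and all in the direction in which VEGFA and ANGPTL4 were called, where 2.48% of all genes were called higher. CA12 kept this call in all 4 fits that left out a library, and ADM and NDRG1 in 2 of 4.

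With TGF-β, the list was called in both directions, 2 higher and 2 lower, with a median of 0.30, where 3.58% and 4.26% of all genes were called. PFKFB4, a glycolytic regulator, rose by 2.01 (adjusted p = 0.00233) and CA12 by 1.82 (adjusted p = 8.1e-04), and NDRG1 fell by 1.75 (adjusted p = 5.4e-06). In the rescue clones against KO2, 1 was called higher and 4 lower, with a median of −0.56, where 7.84% and 9.65% of all genes were called, with CA12 at −5.68 (adjusted p = 7.4e-10), NDRG1 at −1.81 (adjusted p = 2.2e-07) and the oxygen sensor EGLN3 at −1.73 (adjusted p = 9.5e-04). ADM went the other way, with 231 and 89.3 in Rescue1 and 103.5 and 274 in Rescue2 against 73.2 and 44.8 in KO2. It had 9.4 and 11.2 in WT and 171 and 392 in the eGFP cells. CA12 also fell by 3.63 in the labelled KO2 rescue (adjusted p = 1.8e-06), as did DDIT4, which fell by 2.49 (adjusted p = 0.0413, kept in 1 of 4 fits that left out a library), where SETD2 was below KO2. In the labelled KO2 rescue, 1 of the list was called higher and 2 lower, where 1.65% and 2.52% of all genes were. The higher was SLC2A1 (1.02, adjusted p = 7.3e-07). It had 10656 and 12100 there, above KO2 (5838 and 5338) and below WT (13028 and 14335). In the rescue clones against eGFP, 1 was called higher and 6 lower, with a median of −0.53, where 6.47% and 6.66% of all genes were. In the eGFP cells against WT, 4 were called higher and 3 lower, with a median of 0.65, where 6.49% and 6.24% of all genes were. ADM was at 4.53, CA12 at 4.18 and DDIT4 at 2.98 there, and neither VEGFA nor ANGPTL4 was called. With WT replicate 1 left out 6 were called higher and 2 lower, and with WT replicate 2 left out 5 and 3. With equal totals, the list medians were 0.49 in KO1, 0.24 in KO2 and 0.08 with TGF-β. CA9 was not tested, and EGLN1 was not analysed here. The part of the hypoxia pathway in the VEGFA and ANGPTL4 results was not tested.

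**Figure D5:**
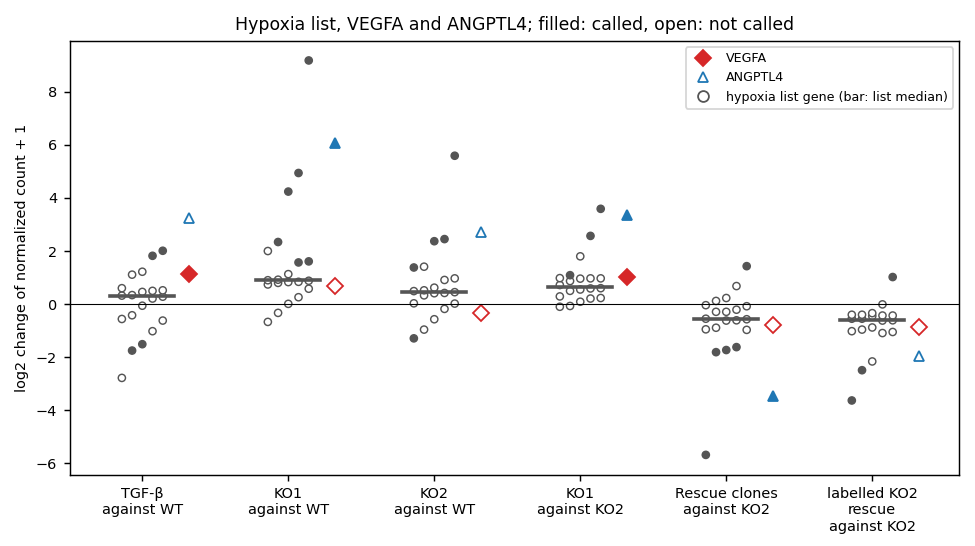
Log2 changes of the normalized count + 1 of the 20 hypoxia list genes tested (circles, with the list median as a bar), VEGFA (diamonds) and ANGPTL4 (triangles) in 6 comparisons; filled symbols were called and open ones were not. The list medians are 0.89 in KO1 and 0.47 in KO2, where VEGFA is at 0.69 and −0.34 and ANGPTL4 at 6.06 and 2.70.

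ANGPTL4 is also controlled by the fatty acid receptors of the PPAR family and acts on lipoprotein lipase (LPL), and 9 of 12 listed genes of that kind were tested. In KO1, 2 were called higher and 1 lower, with a median of 0.80, and in KO2, 3 higher and 1 lower, with a median of 0.66, beside the shares of all genes given above. When a WT library was left out, 3 or 2 were called higher in KO1 and 2 in KO2, and 1 or 0 lower in KO2. PDK4, a PPAR target that spares glucose, rose in KO1 (3.44, adjusted p = 0.00357) and KO2 (3.30, adjusted p = 0.00643), from 0 and 2.0 in WT to 7.7 and 39.8 in KO1 and 21.2 and 12.2 in KO2. PPARA rose in KO1 (2.02, adjusted p = 1.6e-07) and KO2 (1.58, adjusted p = 3.7e-06), from 311 and 313 to 1194 and 1352 in KO1 and 865 and 1012 in KO2, and it was also called in eGFP against WT (1.35, adjusted p = 2.8e-05). LPL rose in KO2 (3.19, adjusted p = 0.00567), from 4.7 and 0.6 to 26.9 and 26.4. PPARG, at 12.8 and 20.8 in WT, was 0 in both KO1 libraries. None was called with TGF-β by limma, whose ANGPTL4 value missed the threshold. In the rescue clones against KO2, 1 was called higher and 3 lower, where 7.84% and 9.65% of all genes were. LPL fell by 4.04 (adjusted p = 2.6e-04), PDK4 fell by 3.58 (adjusted p = 0.00111), and PPARD, another receptor of the family, rose (3.81, adjusted p = 0.0028). PDK4 also fell by 4.1 in the labelled KO2 rescue (adjusted p = 0.00411), where SETD2 was no higher than in KO2. The PDK4 call was kept in 3 of 4 fits that left out a library in KO1 and in 2 of 4 in KO2, and the LPL call in KO2 in 3 of 4. GPIHBP1 was not analysed here.

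Extracellular or cell surface proteins that bind, cleave or oppose these ligands or their receptors formed a further list, of which 14 were listed and 12 tested. In KO1, 2 were called higher and 5 lower, with a median of −1.08, where 12% and 13.1% of all genes were. In KO2, 2 were called higher and 4 lower, with a median of −1.10, where 9.02% and 7.29% of all genes were. With WT replicate 1 left out, 2 were higher and 4 lower in both, and the medians were −0.43 and −0.57. The matrix protein THBS2, an inhibitor of vessel growth, rose in KO1 (5.16, adjusted p = 9.5e-11), KO2 (5.67, adjusted p = 6.4e-11) and with TGF-β (2.55, adjusted p = 1.6e-06), from 7.5 and 7.7 in WT. DCN, a proteoglycan that binds growth factors, rose in KO1 by 9.26 (adjusted p = 1.6e-14) and in KO2 by 8.02 (adjusted p = 2.1e-13). CCBE1, a cofactor for the processing of VEGFC, fell by 3.55 in KO1 (adjusted p = 3.4e-09) and fell by 3.06 in KO2 (adjusted p = 3.3e-08), from 4192 and 5454 in WT to 376 and 444 in KO1 and 606 and 538 in KO2, while VEGFC itself was near 0 in all of them. THBS1 was lower in the knockouts, at 30757 and 32442 in KO1 and 29749 and 30456 in KO2 against 86896 and 109422 in WT. In eGFP against WT, 2 of the list were called higher and 3 lower, where 6.49% and 6.24% of all genes were. The eGFP cells had 20.6 and 19.6 of THBS2, 1485 and 1865.5 of DCN (477.5 and 289.2 in WT) and 1259 and 1588 of CCBE1. They had 44942 and 50161 of THBS1, between the knockouts and WT. In Rescue1 THBS2 had 2072 and 1869 and in Rescue2 463 and 527, beside 491 and 387 in KO2. CCN2 was not analysed here.

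DCN is also 1 of 9 fibroblast markers, and the summed fibroblast list moved with these groups. Its sums were 236666 and 223519 in KO1, 103695 and 100083 in KO2, 47815 and 46406 after TGF-β, 41555 and 39220 in the labelled KO2 rescue and 830.1 to 1536 in the rescue clones, against 12453 and 846 in WT. A single collagen or proteoglycan gene carried most of each of the larger sums. DCN was 234809 of the 236666 in KO1 replicate 1, and COL1A1 was 46598 of the 47815 in TGF-β replicate 1 and 11919 of the 12453 in WT replicate 1. COL1A1 was 1042 and 815 in KO1, below WT replicate 1 and above the 532 of WT replicate 2. Of its 9 markers, 5 were called higher and 1 lower in KO1, 5 and 0 in KO2, 3 and 0 with TGF-β, and 0 and 6 in the rescue clones against KO2, where 12% and 13.1%, 9.02% and 7.29%, 3.58% and 4.26%, and 7.84% and 9.65% of all genes were called. With WT replicate 1 left out the first 3 of these counts were 5 and 0, 6 and 0, and 5 and 0, and with WT replicate 2 left out they were 4 and 2, 3 and 1, and 3 and 0. The summed proximal tubule and epithelial list was 39543 and 43478 in WT, 20213 and 19086 in KO1 and 27959 and 26642 in KO2. It was 26778.5 and 28372 in the eGFP cells, 44829 and 45926 in the labelled KO2 rescue and 41431 to 45575 in the rescue clones. KRT8 and KRT19 were 15741 and 16349 of the 39543 in WT replicate 1. Of the 12 tested genes of this list, 3 were called higher and 5 lower in KO1, and 2 and 3 in KO2. PAX8 was among those that went up, with 2322 and 3743 in WT and 6382 and 6561 in KO1. The part of these marker levels in the VEGFB, ANGPTL4, KDR and NRP2 results was not tested.

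By Pearson correlation over the 11 group means of log2 levels, the genes most like VEGFA were NPTN (0.947), RUNX1 (0.93) and CPT1C (0.926), and those most like ANGPTL4 were MOGS (0.976), SYVN1 (0.974) and SELENOM (0.972). For VEGFB they were HLA-DRB1 (0.986), XRCC2 (0.986) and ADORA2A (0.982), each with a median of 0 normalized counts over the libraries, so their likeness rests on the knockout and labelled KO2 rescue groups. For PGF they were ZNF267 (0.879), ZNF16 (0.87) and the pseudogene NAIPP1 (0.85). Among the members, VEGFB and ANGPTL4 had the highest coefficient, 0.73 (Spearman 0.12), and VEGFA and ANGPTL4 had 0.59 (Spearman 0.40). The other 4 pairs lay between −0.53 and 0.05. The 11 points come from libraries that share 1 normalization, and the coefficients are descriptions only.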

How the data were processed

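RNA-seq was measured in 22 libraries of 11 groups. The authors aligned TruSeq Stranded mRNA reads with Salmon 1.9.0 to Ensembl 94 transcripts of GRCh38 and processed counts with DESeq2 1.26.0. The deposited values are log2 values of a variance-stabilizing transformation (shared minimum 11.32), although named normalized counts. They were inverted to normalized counts and, from the step of 1 read, to approximate reads. Symbols came from GENCODE 44 (33878 of 36859 genes).

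The main test was limma 3.58.1 (R 4.3.3) on log2(normalized count + 1), with a variance trend, all 22 libraries in 1 fit of group means, a filter of 10 or more normalized counts in 2 or more libraries, and Benjamini-Hochberg adjustment over 14585 genes. DESeq2 and edgeR need counts and were not used. A called gene had an adjusted p below 0.05 and an absolute log2 change above 1. The script was tested on simulated data. Replicate numbers did not pair the libraries (correlations of deviations −0.08 to 0.05 over 55 group pairs). Named were all 7 members, the receptors, and per list and comparison up to 3 called genes with the largest changes in every pair of libraries. Members and lists were chosen with earlier results of these data known. Alternatives were other pseudocounts (0.5, 5), filters, scalings, the deposited log2 values, a replicate block, only the libraries compared, and leaving out each library. Promoters came from RefSeq (GRCh38.p14), which held 4 of the 7 members here. Counting intervals are exact 95% intervals. Python 3.11.15, numpy 2.4.6, pandas 2.3.3 and matplotlib 3.10.9 were used.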

Additional observations from a re-analysis of the deposited data

Results flagged for a closer look

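The effect of SETD2 knockout on VEGFA differed between the clones when the difference itself was tested. KO1 was 1.04 higher than KO2 on the log2 scale (limma adjusted p = 8.3e-05), with 13351 and 13328 normalized counts against 6527 and 6491. ANGPTL4 differed between the clones by 3.36 (adjusted p = 0.0458), with 399.6 and 358 against 35.0 and 36.6, and this call was lost without any 1 of the 4 libraries. PGF differed between the rescue clones by −4.14 (adjusted p = 0.0038), with 1.57 and 0 in Rescue1 against 30.1 and 24.7 in Rescue2. Each clone is 1 cell line, so a difference between clones cannot be told apart from a difference that any pair of clones would show.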

How the results depend on the processing

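Over 52 values of 4 members in 13 comparisons, 686 alternative values were computed, of which 616 kept their direction and side of the threshold, 29 lost a call, 11 gained one and 30 changed sign. Members called moved as follows. With TGF-β (1) they were 2 with a pseudocount of 5 and 0 with the same total, the deposited log2 values or only the libraries compared, and 0 to 1 leaving out a library. In KO1 (2) they were 1 at a mean of at least 50 and 0 on the deposited log2 values, whose high floor compresses changes. In KO2 (0) they were 1 with a pseudocount of 5. In KO1 against KO2 (2) they were 1 with a pseudocount of 0.5, no filter, a mean of at least 50 or the replicate block, 0 with quantile normalization, the same total, the deposited values or only the libraries compared, and 1 leaving out any library. For the knockouts against TGF-β (1) they were 2 with quantile normalization, the same total or only the libraries compared, 0 on the deposited values, and 1 to 2 leaving out a library. For the rescue clones against KO2 (1) they were 0 at a mean of at least 50 or on the deposited values, 2 for either clone alone, 3 against the mean of both knockouts, and 0 to 1 leaving out a library. Against eGFP (1) they were 0 with the same total or the deposited values, and 1 to 2 leaving out a library. Between the rescue clones (1) they were 0 at a mean of at least 50, on the deposited values or with only the libraries compared. The replicate block, a pairing that the labels' numbers do not support, changed no other count.

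Sign changes were mostly of values near 0. PGF in the rescue clones against KO2 (−0.10) was 0.27 with a pseudocount of 5, 0.41 with quantile normalization, 0.13 with the same total, 0.01 on the deposited values, 1.97 for Rescue2 alone and 0.53 against both knockouts. VEGFB in the labelled KO2 rescue (−0.03) was 0.01 with quantile normalization and 0.04 with the same total, which also gave −0.01 for VEGFB in eGFP against WT and, with OCT2, 0.01 for VEGFA and 0.04 for VEGFB. ANGPTL4 with OCT2 was −0.12 with quantile normalization. Leaving out a library, VEGFB ran from −0.25 to 0.09 with TGF-β, −0.03 to 0.15 in the rescue clones against eGFP, −0.10 to 0.05 in the labelled KO2 rescue, −0.07 to 0.11 in eGFP against WT and −0.10 to 0.08 with OCT2. PGF ran from −0.51 to 0.48 in KO2 and −0.44 to 0.24 in the rescue clones against KO2. ANGPTL4 ran from −1.19 to 0.06 in the rescue clones against eGFP, −0.29 to 2.21 between them, −0.90 to 0.48 in eGFP against WT, −0.01 to 0.29 with OCT2 and −2.29 to 1.15 with PRRX1, and VEGFA from −0.41 to 0.24 in eGFP against WT. Where a library was left out, the lone library of its group was assumed to vary like the others. The cause of these changes was not tested. Depth limits VEGFC, ANGPT1, ANGPT2, PGF and ANGPTL4.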
